A study of Mus musculus with 8 samples.

Results

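The circadian clock genes described here are Arntl, Clock, Per1, Per2, Per3, Nr1d1, Nr1d2, Dbp, Tef and Ciart, chosen by symbol in the gene lists of the matrices. All 10 were found among the 32285 genes measured. They were followed in spatial transcriptomic (ST) sections and in single-cell libraries of mouse hearts after transverse aortic constriction (TAC), a surgical narrowing of the aortic arch that loads the left ventricle with pressure. The mice were wild-type male C57BL/6J animals aged 8 weeks at surgery and kept on a 12 h light/dark cycle. They were taken 2, 4 or 6 weeks after surgery (TAC-2w, TAC-4w, TAC-6w) or had sham surgery, in which the aorta was not ligated. Each condition had 1 section and 1 library, and the hour of sampling, the number of mice behind a sample, the week at which sham hearts were taken, and whether a section and a library came from the same heart are not given in the sources used here.

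The clock is a feedback loop that runs in most cells of the body, heart cells included, and sets much of the daily change in cardiac metabolism. ARNTL (also called BMAL1) and CLOCK pair as a transcription factor that binds E-boxes and turns on Per, Cry, Nr1d1, Nr1d2, Dbp, Tef and Ciart. The PER proteins and CIART then repress that pair, NR1D1 and NR1D2 (REV-ERB alpha and beta) repress Arntl through RORE sites, and DBP and TEF act on D-boxes of further targets. Arntl therefore runs out of phase with Dbp, Nr1d1 and the Per genes, and the balance between them in a tissue at 1 moment reflects the hour. The comparison asked whether that balance agreed between the cell types of a library and between the section and the library of a condition.

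The genes lie apart on the genome. In the GRCm38.p6 build (the assembly called mm10 in the submitters' notes), Arntl lies at chr7:113178471-113314126, Clock at chr5:76209868-76305603, Per1 at chr11:69095108-69109965, Per2 at chr1:91415977-91459351 and Per3 at chr4:150997018-151044707. Nr1d1 lies at chr11:98767932-98775377, Nr1d2 at chr14:18204056-18239106, Dbp at chr7:45705100-45710203, Tef at chr15:81802673-81826863 and Ciart at chr3:95878500-95882257. Nr1d1 overlaps Thra, Dbp overlaps Sphk2 and Per3 overlaps Uts2, and whether counting used strand is not given in the sources used here, so reads of those pairs may not have been kept apart.

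Letters of the binding sites named above stand near some gene starts. RefSeq promoters of the same build were matched for 9 of the 10 genes, from 250 bases before to 50 after each start; Per2 was not matched. The 9 genes had 14 windows. The letters CACGTG (E-box) stood in windows of 3 of these genes (Ciart, Tef and Per1), against 7.15% of all 32851 windows. Some genes had several windows, so a count of genes and a share of windows are unlike measures. TTATGTAA (D-box) stood in Per3, against 0.938%, TAGGTCA (RORE) in Arntl, against 2.61%, and CACGTT (E'-box) in Nr1d1, against 4.68%, while TGACGTCA (CRE, 1.79%) stood in no clock gene window. Both strands were searched, and the motifs overlap nowhere in these windows. None of these motifs stood in a window of Clock, Nr1d2 or Dbp, and sites further from the starts were not searched. A match is only a match of letters. The stretches below show the genes with a match, each 5′ to 3′ on the strand of its gene with the matched letters in capitals (that of Nr1d1 is on the other strand and reads in reverse complement). They are, in order, chr3:95882258-95882478 (minus strand), chr15:81802423-81802672 (plus), chr4:151044708-151044915 (minus), chr11:98775378-98775627 (minus), chr11:69098772-69098801 (plus) and chr7:113207530-113207559 (plus). The first 4 lie outside the annotated gene, and the other two are cut to 30 bases because they lie within it.
Ciart: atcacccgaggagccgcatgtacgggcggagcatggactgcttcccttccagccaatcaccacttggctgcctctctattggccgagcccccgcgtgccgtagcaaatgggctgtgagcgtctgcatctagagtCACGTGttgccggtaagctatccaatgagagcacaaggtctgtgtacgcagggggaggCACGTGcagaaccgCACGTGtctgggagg
Tef: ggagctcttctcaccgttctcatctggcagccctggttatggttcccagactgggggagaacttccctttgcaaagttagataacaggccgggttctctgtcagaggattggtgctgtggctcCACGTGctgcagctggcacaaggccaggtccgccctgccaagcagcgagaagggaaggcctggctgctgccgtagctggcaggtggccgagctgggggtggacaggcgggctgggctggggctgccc
Per3: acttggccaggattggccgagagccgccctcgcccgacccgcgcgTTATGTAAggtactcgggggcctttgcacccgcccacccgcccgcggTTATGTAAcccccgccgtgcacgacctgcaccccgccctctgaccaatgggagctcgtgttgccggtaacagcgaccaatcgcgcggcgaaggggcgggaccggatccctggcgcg
Nr1d1: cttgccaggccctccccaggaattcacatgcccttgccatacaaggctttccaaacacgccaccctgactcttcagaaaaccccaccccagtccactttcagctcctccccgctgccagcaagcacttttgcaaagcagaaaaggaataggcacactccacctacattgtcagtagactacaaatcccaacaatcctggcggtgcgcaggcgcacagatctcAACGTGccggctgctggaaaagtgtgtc
Per1: gcacccaagtcCACGTGcagggatgtgtgt
Arntl: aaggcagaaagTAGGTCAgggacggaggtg

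The values are UMI counts, that is counts of distinct captured molecules. A level is given as CPM, the gene's summed UMIs per 1000000 UMIs of the section, library or cell type, with an exact 95% Poisson interval, and these intervals cover counting error only. The sections held 1228 to 2193 spots and 25996378 to 48754396 UMIs, and 5399 to 7965 cells per library were kept. Mitochondrial genes took 42.2% to 51.5% of the UMIs of a section, most in sham. By the labels, the sham and TAC-2w sections share batch 1 and the sham and TAC-6w libraries share batch 3, and these are the only contrasts with sham within a batch. With 1 sample a group no test between conditions was possible. Effects of surgery, of age at sampling, of the single heart, of the batch and of the hour cannot be told apart.

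In the sections, Dbp, a transcription factor at the output of the clock, was lower in TAC-2w and TAC-4w than in sham and TAC-6w, and Arntl was highest in TAC-4w. The level of Arntl was 2.42 CPM in sham (63 UMIs, interval 1.86 to 3.10), 3.16 CPM in TAC-2w (2.68 to 3.70), 4.26 CPM in TAC-4w (3.57 to 5.04) and 3.21 CPM in TAC-6w (2.72 to 3.76). Only the TAC-4w interval stood apart from that of sham, at 1.76 times sham (1.29 to 2.41). The level of Dbp was 64.2 CPM in sham (61.2 to 67.4), 46.0 CPM in TAC-2w (44.1 to 47.9), 37.0 CPM in TAC-4w (34.9 to 39.2) and 70.9 CPM in TAC-6w (68.6 to 73.4). No 2 of the 4 intervals of Dbp overlapped, but its place above sham in TAC-6w turned to below sham with mitochondrial and rRNA-like genes left out of the total or with scaling by the median gene. In such tissue fewer cells of a type and less RNA per cell cannot be told apart. Tef, a relative of Dbp that binds the same sites, stayed within a narrower range, with levels from 47.0 CPM in TAC-2w to 54.1 CPM in TAC-6w.

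Of the repressors, Ciart differed most between sections. Its level was 8.31 CPM in sham (7.24 to 9.49), 3.45 CPM in TAC-2w (2.94 to 4.01), 5.67 CPM in TAC-4w (4.87 to 6.55) and 7.77 CPM in TAC-6w (7.00 to 8.59). The TAC-2w section was therefore at 0.415 times sham (0.337 to 0.510), and both carried batch 1. Per3, a period gene, was at 0.755 times sham in TAC-2w (0.638 to 0.895), 0.607 times in TAC-4w (0.497 to 0.740) and 1.01 times in TAC-6w (0.859 to 1.18). Per2 was below sham in the 3 TAC sections, at 0.698, 0.772 and 0.768 times. Per1, which also answers quickly to hormones and stress, was at 0.744 times sham in TAC-2w (0.684 to 0.810) and at 1.18 times in TAC-6w (1.09 to 1.28), the latter turning to below sham when scaled by the median gene.

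The repressors of Arntl lay closer together. Nr1d1 ranged from 38.8 CPM in sham to 47.4 CPM in TAC-6w and Nr1d2 from 41.8 CPM in TAC-4w to 51.7 CPM in sham. Clock, the partner of Arntl, lay between 12.0 and 13.2 CPM. The level of Nr1d1 was 1.09, 1.09 and 1.22 times sham, and its direction was not stable: with mitochondrial and rRNA-like genes left out of the total it was below sham in TAC-2w and TAC-4w, and scaled by the median gene it was below sham in TAC-4w and TAC-6w. The median gene of the sections itself stood at 1.16 times sham in TAC-4w and 1.24 times in TAC-6w.

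Counted by a fold of 1.5 among genes whose larger sum reached 50 UMIs, no clock gene was above and 1 (Ciart) was below in the TAC-2w section, against 4.95% above and 3.27% below of all 11423 genes compared. In the TAC-4w section Arntl was above and Dbp and Per3 were below, against 15.2% above and 2.5% below. No clock gene passed the fold in the TAC-6w section, where 17.6% of genes were above and 0.962% below. All 10 clock genes had enough UMIs in these comparisons, and their median ratio to sham was 0.817, 0.861 and 1.04, against medians of 1.03, 1.16 and 1.24 over all genes.

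**Figure D1:**
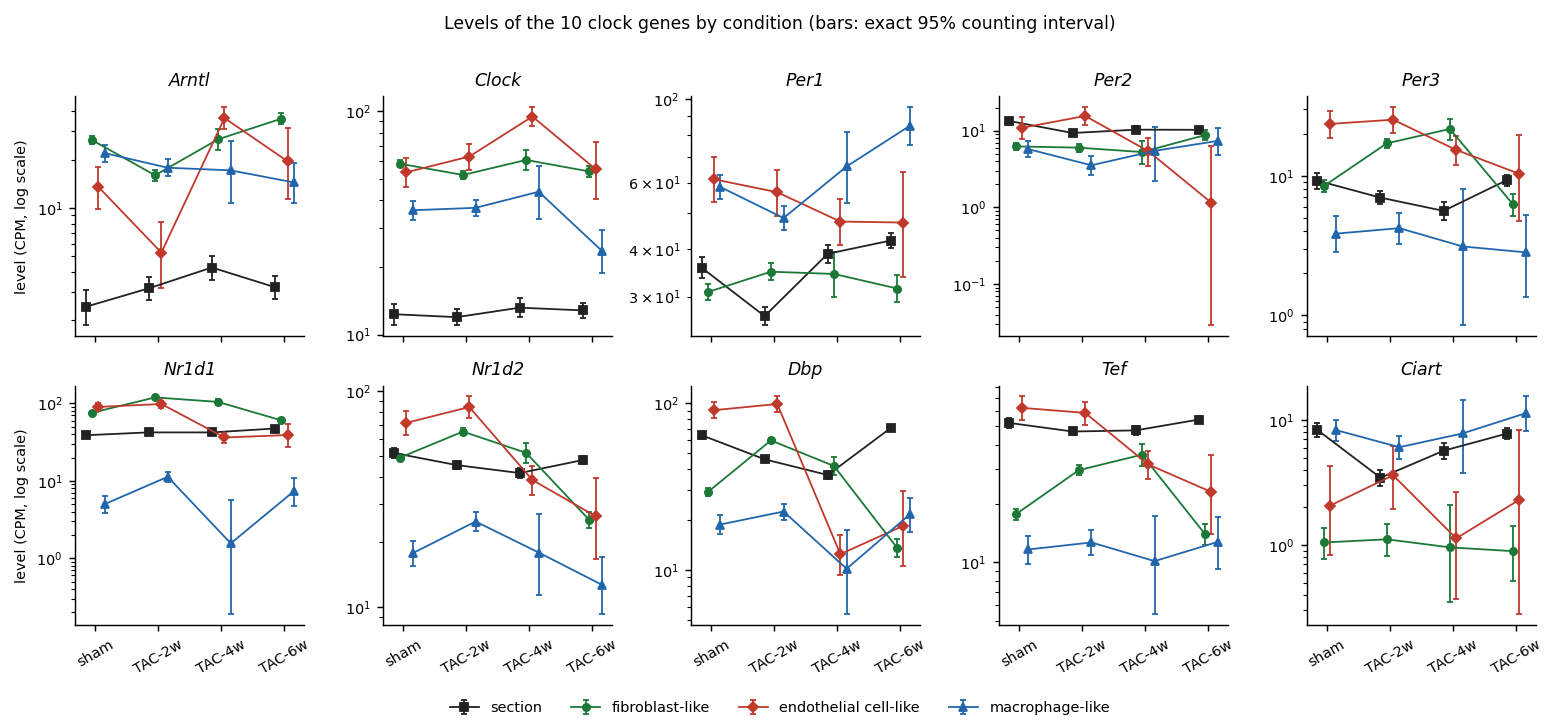
Level of each clock gene (CPM, log axis) in the sections and in the fibroblast-, endothelial cell- and macrophage-like cells of the libraries, by condition. Points are summed counts of 1 sample, bars exact 95% counting intervals, and lines join the conditions of 1 assay or cell type. Endothelial cell-like Dbp drops from 98.8 CPM in TAC-2w to 12.4 CPM in TAC-4w, while Dbp of the sections stays between 37.0 and 70.9 CPM.

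The libraries were clustered without the clock genes, and clusters were named from fixed marker lists. Fibroblast-like, endothelial cell-like and macrophage-like cells had at least 20 UMIs of Arntl and Dbp summed, and of Arntl and Nr1d1 summed, in each library. Cardiomyocyte-like cells numbered 11 to 107 per library, and the library labels speak of nuclei where the methods speak of cells.

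In fibroblast-like cells, the TAC-2w and TAC-6w libraries stood on opposite sides of sham. The level of Arntl was 26.5 CPM in sham, 16.0 CPM in TAC-2w, 26.8 CPM in TAC-4w and 36.0 CPM in TAC-6w. Dbp ran the other way, with a level of 29.2 CPM in sham, 59.7 CPM in TAC-2w, 41.9 CPM in TAC-4w and 13.5 CPM in TAC-6w. The TAC-2w library thus had the lowest Arntl and the highest Dbp, at 0.604 times (0.549 to 0.664) and 2.04 times sham (1.91 to 2.18). The TAC-6w library had the highest Arntl and the lowest Dbp, at 1.36 times (1.24 to 1.49) and 0.462 times sham (0.403 to 0.528). This contrast lies within a batch. Finer clusters, described below, did not share the rise of Arntl alike. It went from 28.0 to 38.9 CPM in the cluster led by Cxcl14 and from 40.5 to 54.0 CPM in that led by Stmn4. It was at 23.2 and 23.3 CPM in that led by Igfbp3 and at 17.7 and 20.8 CPM in that led by Wif1. Dbp was below sham in each of those named. The Cxcl14 cluster held 1424 sham and 2001 TAC-6w cells, and the Igfbp3 cluster 2375 and 685. The pooled ratio thus mixes clusters in different shares.

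The other output and repressor genes of fibroblast-like cells largely sided with Dbp. In TAC-2w, Per3 was at 2.03 times sham (1.79 to 2.30), Tef at 1.69 times (1.54 to 1.84), Nr1d1 at 1.58 times (1.51 to 1.65) and Nr1d2 at 1.32 times (1.25 to 1.40). In TAC-6w the same 4 genes were below sham, Nr1d2 most of them at 0.515 times (0.467 to 0.569). Per2 did not follow, at 0.963 times sham in TAC-2w (0.811 to 1.14) and 1.40 times in TAC-6w (1.16 to 1.70). Per1 (30.8 to 34.9 CPM), Clock (51.9 to 60.5 CPM) and Ciart (0.891 to 1.11 CPM) lay in narrow ranges across the 4 libraries.

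In the TAC-2w fibroblast-like cells 4 clock genes were above the fold (Dbp, Per3, Nr1d1, Tef) and Arntl was below, against 2.24% above and 1.57% below of all genes. In TAC-4w Per3 and Tef were above and none was below, against 12.9% and 8.44%. In TAC-6w none was above and Dbp and Nr1d2 were below, against 7.54% and 13.9%.

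Endothelial cell-like cells showed the widest range of all. The level of Arntl was 13.5 CPM in sham (46 UMIs), 5.27 CPM in TAC-2w (19 UMIs), 36.3 CPM in TAC-4w (161 UMIs) and 19.5 CPM in TAC-6w (17 UMIs). The level of Dbp was 90.7 CPM in sham, 98.8 CPM in TAC-2w, 12.4 CPM in TAC-4w and 18.4 CPM in TAC-6w. Dbp was therefore at 0.137 times sham in TAC-4w (0.101 to 0.183) and 0.203 times in TAC-6w (0.114 to 0.334), while Arntl was at 2.68 times sham in TAC-4w (1.92 to 3.81). Nr1d1, Nr1d2, Tef and Per3 were below sham in both libraries, at 0.403 to 0.651 times in TAC-4w and 0.370 to 0.439 times in TAC-6w.

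These values mix clusters in different shares. Without a cluster led by Npr3, which held 41.7% of the sham cells and 2.09% of the TAC-4w cells, Arntl was at 1.22 times sham in TAC-4w (0.854 to 1.79) and Dbp at 0.248 times (0.168 to 0.367). Nr1d1 was then at 0.612 times (0.462 to 0.817), while Nr1d2, Tef and Per3, at 0.794 to 0.821 times, had intervals that included 1. In TAC-6w without that cluster Dbp was at 0.400 times (0.207 to 0.725) and Nr1d2 at 0.515 times (0.286 to 0.884), and the intervals of Nr1d1, Tef and Per3 included 1. Arntl, above sham in value with the cluster in TAC-6w, was below it without. It was then at 20.3 CPM (15 UMIs) against 30.0 CPM in sham (38 UMIs).

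In macrophage-like cells Arntl and Dbp lay within narrower ranges. The level of Arntl was 22.0 CPM in sham, 17.8 CPM in TAC-2w, 17.1 CPM in TAC-4w and 14.4 CPM in TAC-6w, and that of Dbp was 18.7, 22.4, 10.1 and 21.5 CPM. Arntl was below sham with an interval clear of 1 in TAC-2w (0.811 times, 0.681 to 0.965) and TAC-6w (0.657 times, 0.477 to 0.888). Nr1d1 was low, at 5.00 CPM in sham, 11.3 CPM in TAC-2w, 1.56 CPM in TAC-4w (2 UMIs) and 7.35 CPM in TAC-6w, so that sham macrophage-like cells held 6.60% of the level of sham fibroblast-like cells. Fibroblast markers in those same macrophage-like cells, with 6 of 6 detected, summed to 0.814% of their level in fibroblast-like cells (0.585% in TAC-2w, 0.0977% in TAC-4w with 5 of 6 detected, 0.632% in TAC-6w). Per1 was at 1.45 times sham in TAC-6w (1.26 to 1.66).

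In macrophage-like cells Nr1d1 was above and Per2 below the fold in TAC-2w, against 1.48% above and 1.05% below of all genes. In TAC-4w Dbp and Nr1d1 were below and none was above, against 12.4% and 11.7%, and in TAC-6w Arntl and Clock were below and none was above, against 17% and 4.79%, with 9 of the 10 clock genes counted in both. The Nr1d1 ratio in TAC-4w rests on those 2 UMIs, and its interval ran from 0.0369 to 1.18.

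**Figure D2:**
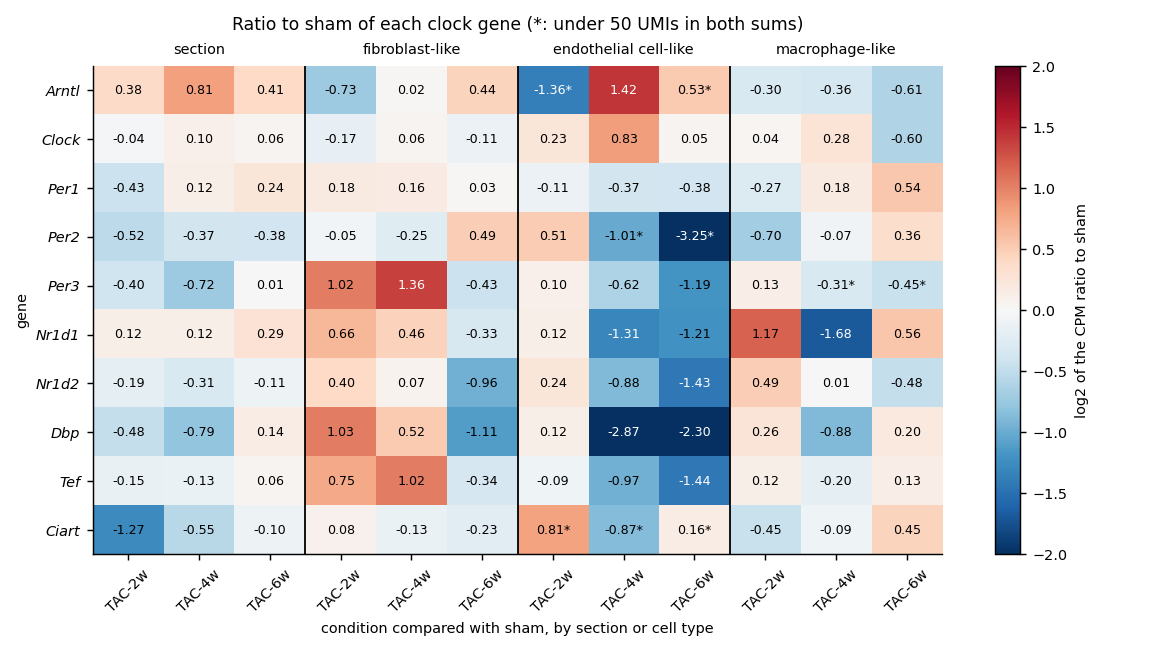
Log2 of the CPM ratio to sham for each clock gene (rows) in the sections and 3 cell types by condition (columns), red above and blue below sham, with an asterisk where neither sum reached 50 UMIs. The Dbp row reads -0.48 and -0.79 in the TAC-2w and TAC-4w sections, 1.03 in TAC-2w fibroblast-like cells and -2.87 in TAC-4w endothelial cell-like cells.

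The balance of the loop was summarised as UMIs of Dbp per UMI of Arntl, which does not depend on the total. A ratio between genes also carries how well each is captured, so it was compared only between conditions of 1 assay or cell type. In the sections it was 26.5 in sham (20.6 to 34.6), 14.6 in TAC-2w (12.4 to 17.3), 8.69 in TAC-4w (7.27 to 10.5) and 22.1 in TAC-6w (18.8 to 26.1). In order, sham and TAC-6w did not differ beyond counting error, and TAC-2w and TAC-4w followed, each apart from its neighbour. Against sham the ratio was 0.550 times in TAC-2w (0.400 to 0.747), 0.328 times in TAC-4w (0.237 to 0.450) and 0.834 times in TAC-6w (0.609 to 1.13).

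Fibroblast-like cells gave another order. Their ratio of Dbp to Arntl was 1.11 in sham (1.02 to 1.19), 3.74 in TAC-2w (3.43 to 4.08), 1.57 in TAC-4w (1.29 to 1.91) and 0.376 in TAC-6w (0.325 to 0.435), and neighbours in that order were apart. In endothelial cell-like cells it was 6.70 in sham (4.90 to 9.34), 18.7 in TAC-2w (11.8 to 31.5), 0.342 in TAC-4w (0.247 to 0.467) and 0.941 in TAC-6w (0.445 to 1.98), a span of 54.8 times. In macrophage-like cells it was 0.851 in sham (0.710 to 1.02), 1.26 in TAC-2w (1.06 to 1.48), 0.591 in TAC-4w (0.273 to 1.23) and 1.49 in TAC-6w (1.03 to 2.17), a span of 2.52 times.

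In TAC-2w the 3 cell types with enough UMIs lay on one side of sham and the section on the other. Among types with fewer UMIs, B cell-like, T cell-like, dividing, cardiomyocyte-like and monocyte-like cells were lower in TAC-2w than in sham in value, as described below. Smooth muscle cell- or pericyte-like, dendritic cell-like and neutrophil-like cells were higher in value. The Dbp to Arntl ratio was 3.38 times sham in fibroblast-like (3.01 to 3.8), 2.80 times in endothelial cell-like (1.57 to 5.16) and 1.48 times in macrophage-like cells (1.15 to 1.89), while the section was at 0.550 times. Nr1d1 against Arntl was likewise above sham in the 3 types, at 2.61, 2.80 and 2.78 times, and at 0.835 times in the section, with an interval of 0.607 to 1.14. The 3 Per genes together against Arntl were above sham in fibroblast-like (2.11 times) and endothelial cell-like cells (2.61 times), at 1.02 times in macrophage-like cells (0.833 to 1.24) and below sham in the section (0.564 times, 0.411 to 0.767).

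In TAC-4w the section and the endothelial cell-like cells were below sham and the fibroblast-like cells above it. Against sham the Dbp to Arntl ratio was 0.0510 times in endothelial cell-like (0.0322 to 0.0806) and 1.42 times in fibroblast-like cells (1.15 to 1.75). Macrophage-like cells, with 35 UMIs of both genes in TAC-4w, were at 0.695 times with an interval of 0.314 to 1.48. With Nr1d1 or the Per genes in place of Dbp, the section and the endothelial cell-like cells were again below and the fibroblast-like cells above sham.

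The TAC-6w library carried the same batch number as sham but differed from it in depth. The median kept cell had 4743 UMIs in TAC-6w and 9131 in sham, against 10717 in TAC-2w and 4449 in TAC-4w. Mitochondrial genes took 2.96% of the UMIs in TAC-6w and 5.84% in sham before filtering. The part of depth in the clock values was not tested. The fibroblast-like and endothelial cell-like cells of the TAC-6w library were below sham at 0.340 times (0.288 to 0.401) and 0.141 times (0.0621 to 0.321). Its macrophage-like cells were above sham at 1.75 times (1.16 to 2.66), and the section, from another batch than the sham section, did not differ beyond counting error. Nr1d1 and the Per genes against Arntl gave the same sides in these 3 types, the macrophage-like values being 2.24 times (1.24 to 3.99) and 2.13 times (1.53 to 3.01). The glucocorticoid-responsive genes of a fixed list, hormone targets that also follow the hour and stress, summed to 5998 CPM in these macrophage-like cells and to 2730 CPM in those of sham. Of the 7 genes listed, 2 were at least 1.5-fold above sham and none below, against 4.79% above and 17% below of all genes. The part of these genes in the clock values was not tested.

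**Figure D3:**
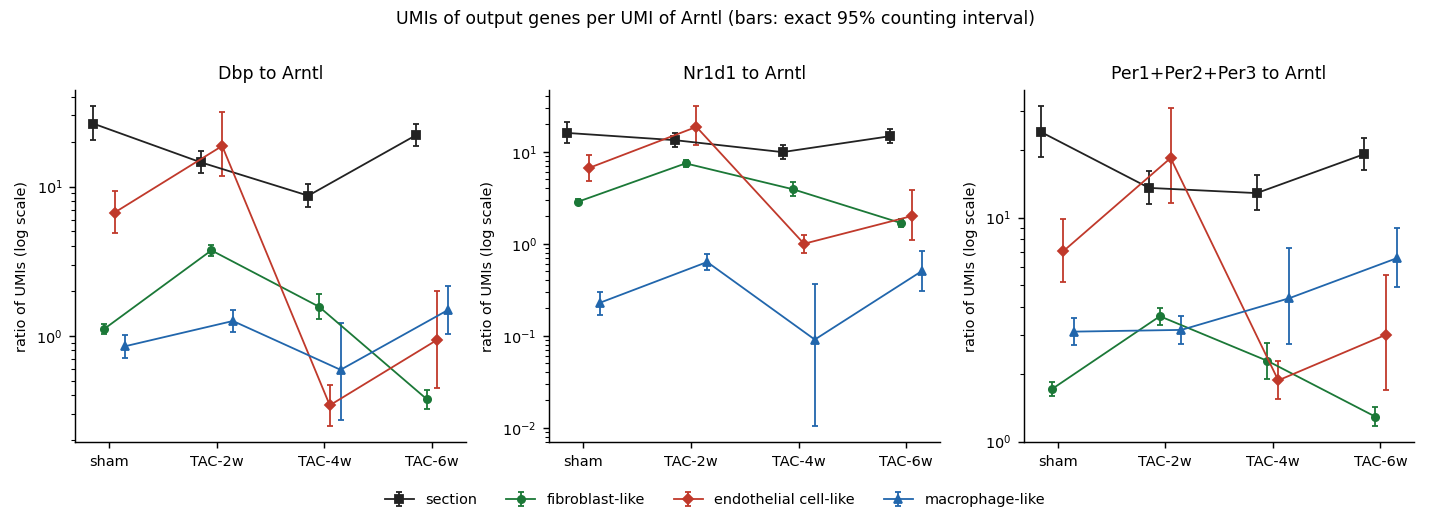
UMIs of Dbp, of Nr1d1 and of the 3 Per genes per UMI of Arntl (log axes) by condition, for the sections and 3 cell types, with exact 95% intervals. In the left panel the section is lower in TAC-2w (14.6) than in sham (26.5) while the 3 cell types are higher, and in TAC-4w the endothelial cell-like value (0.342) lies under the fibroblast-like one (1.57).

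The disagreement of the 2 stromal types in TAC-4w was followed into finer clusters of the same cells (resolution 0.5, again without the clock genes). This look was added after the values were seen. A fibroblast-like cluster led by Gdf10, with Comp, Fst and Angptl7 among its leading genes, held 208 of the 431 TAC-4w cells (48.3%) but 1.65% of sham, 2.26% of TAC-2w and 0.139% of TAC-6w cells. It carried 78.7% of the Dbp UMIs of the TAC-4w fibroblast-like cells. Its Dbp to Arntl ratio was 3.09 in sham (11 UMIs of Arntl), 13.9 in TAC-2w and 4.31 in TAC-4w (207 UMIs of Dbp to 48 of Arntl, 3.14 to 6.03).

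Outside that cluster the TAC-4w fibroblast-like cells lay on the other side of sham. The cluster led by Igfbp3 had a ratio of 1.09 in sham, 3.54 in TAC-2w, 0.333 in TAC-4w and 0.494 in TAC-6w. The cluster led by Cxcl14 had 1.18, 3.38, 0.179 and 0.361, and that led by Stmn4 had 0.624, 3.23, 0.2 and 0.25. In these 3 clusters each TAC-2w ratio was above sham and each TAC-4w and TAC-6w ratio below, with intervals clear of 1. The cluster led by Wif1 (3.05 in sham, 7.48 in TAC-2w, 1.88 in TAC-4w) was above sham in TAC-2w, and its TAC-4w value, at 0.614 times sham, had an interval of 0.287 to 1.35.

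Without the Gdf10 cluster the TAC-4w ratio of the fibroblast-like cells was 0.467 (120 UMIs of Arntl, 56 of Dbp, 0.334 to 0.646), or 0.428 times sham (0.304 to 0.599), in place of 1.42 times. The values of TAC-2w and TAC-6w were 3.33 and 0.343 times sham without it, against 3.38 and 0.340 with it. Some single genes moved with the ratio: in TAC-4w Arntl went from 1.01 to 1.43 times sham, Dbp from 1.43 to 0.611 times and Nr1d1 from 1.38 to 0.811 times. Tef, at 2.02 times sham with the cluster, was at 1.05 times without it (0.790 to 1.37). Per3 and Per2 did not go below sham without that cluster. They were at 1.37 times (0.943 to 1.92) and 1.27 times (0.807 to 1.91), with intervals that included 1.

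Endothelial cell-like cells also mixed clusters. The cluster led by Npr3, a gene of the endocardium, stood apart from the others, and its ratio of Dbp to Arntl was 31.0 in sham and 124.5 in TAC-2w (2 UMIs of Arntl). The capillary cluster, led by Aqp1, had 1.26 in sham, 6.43 in TAC-2w and 0.154 in TAC-4w, and that led by Stmn2 had 3.00, 5.67 and 0.889. Without the Npr3 cluster the TAC-4w ratio was 0.203 times sham (0.118 to 0.351) in place of 0.0510 times, and the TAC-6w ratio was 0.591 times with an interval of 0.236 to 1.48 in place of 0.141 times. The TAC-2w ratio was 3.99 times sham (1.99 to 8.17).

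Counted over the finer clusters with at least 20 UMIs of the 2 genes summed, 5 of 5 fibroblast-like clusters and 1 of 3 endothelial cell-like clusters were above sham in TAC-2w and none below. In TAC-4w 3 of 5 and 2 of 2 were below and none above, and in TAC-6w 3 of 3 fibroblast-like clusters were below. The clusters of a library share its cells' source and are not replicates.

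**Figure D4:**
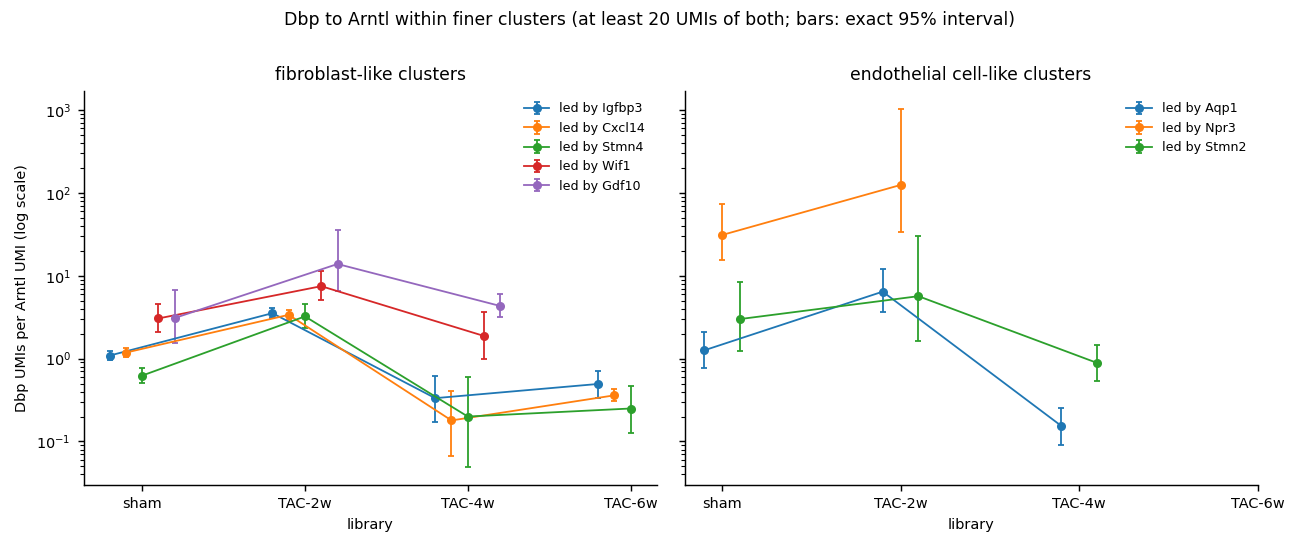
Dbp UMIs per Arntl UMI (log axis) in finer fibroblast-like and endothelial cell-like clusters, named by their leading gene, in each library, shown where both genes summed to at least 20 UMIs. Bars are exact 95% intervals. The clusters led by Igfbp3, Cxcl14, Stmn4 and Aqp1 lie between 0.154 and 0.333 in TAC-4w, and the one led by Gdf10 at 4.31.

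Other cell types had too few UMIs of Arntl and Dbp in some library for the comparison, and their values are given as a description. B cell-like cells had a ratio of Dbp to Arntl of 1.38 in sham (19 UMIs of both, 0.504 to 3.94), 0.5 in TAC-2w (0.110 to 1.87), 0.415 in TAC-4w (201 UMIs, 0.301 to 0.567) and 0.385 in TAC-6w (0.166 to 0.824). T cell-like cells had 2.20 in sham, 1.00 in TAC-2w, 0.531 in TAC-4w (0.317 to 0.871) and 0.25 in TAC-6w (5 UMIs). Dividing cells had 0.750, 0.611, 0.304 (0.155 to 0.563) and 0.25. In these 3 types the TAC-2w, TAC-4w and TAC-6w values were thus each lower than sham, in TAC-2w on the side of the section. Their intervals overlapped those of sham, but overlap does not show that the values agree. Intervals of the change against sham were not worked out for these types. Smooth muscle cell- or pericyte-like cells had 53 UMIs of Dbp to 7 of Arntl in sham and 99 to 2 in TAC-2w. Cardiomyocyte-like cells had 9 UMIs of Dbp to 0 of Arntl in sham and 20 to 7 in TAC-2w. In these few counts the cardiomyocyte-like cells were lower in TAC-2w, on the side of the section. Monocyte-like cells were also lower there, with 1 to 1 in sham and 1 to 9 in TAC-2w. Smooth muscle cell- or pericyte-like cells were higher in TAC-2w. So in value were dendritic cell-like (7 to 4, then 9 to 5) and neutrophil-like cells (1 to 2, then 1 to 0).

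Neutrophil-like cells were high in Per1 and low in Arntl. Per1 was at 229 CPM in sham, 187 CPM in TAC-2w, 187 CPM in TAC-4w and 162 CPM in TAC-6w, against 30.8 to 34.9 CPM in fibroblast-like cells. It lay at 48.4 to 84.8 CPM in macrophage-like and 58.4 to 84.9 CPM in monocyte-like cells. In neutrophil-like cells Ciart was at 50.05, 18.3, 19.0 and 34.3 CPM and Per2 at 16.7, 18.3, 18.3 and 27.4 CPM. Arntl was nearly absent there, with 6 UMIs in 6012559 in TAC-4w (0.998 CPM) and 0 UMIs in TAC-2w and TAC-6w, which allows up to 10.99 and 6.86 CPM. Sham had 2 UMIs of it (4.77 CPM, 0.577 to 17.2). Dendritic cell-like cells were low in Arntl too, at 1.57 to 3.33 CPM. B cell-like cells were also high in Ciart, at 10.4 to 25.5 CPM, against 0.891 to 1.11 CPM in fibroblast-like cells.

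The makeup of a library moved with the levels over all kept cells. Neutrophil-like and B cell-like cells numbered 1253 and 2427 of 6531 kept cells in TAC-4w, and 145 and 232 of 7965 in sham, and fibroblast-like cells 431 and 4493. Over all kept cells, 1 clock gene was above the fold in TAC-4w (Ciart, at 3.08 times sham) and 4 were below (Clock, Nr1d1, Nr1d2, Dbp), against 20.7% above and 28.9% below of all genes. In TAC-2w Dbp and Per3 were above and Arntl below, against 2.45% and 1.94%, and in TAC-6w Dbp and Nr1d2 were below and none above, against 15.9% and 7.12%. The Per genes against Arntl were at 1.80 times sham over all kept cells of TAC-4w (1.62 to 2.00) while Dbp against Arntl was at 0.591 times (0.514 to 0.678).

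Cut into 4 quadrants, the sham section had Dbp to Arntl ratios of 21.2 to 35.0, TAC-2w of 11.7 to 19.6, TAC-4w of 7.05 to 10.2 and TAC-6w of 18.5 to 24.1. The values in TAC-2w and TAC-4w quadrants did not reach those of sham, and the values in TAC-6w overlapped them, although quadrants of 1 section are not replicates. The sham quadrants held only 6 to 25 UMIs of Arntl, and some intervals overlapped. That of the lower right sham quadrant (14.2 to 33.1) overlapped the upper right one of TAC-2w (14.0 to 28.4) and the upper left one of TAC-4w (6.17 to 17.9). Split into 3 groups by UMIs per spot, the spots gave 15.7 to 31.5 in sham, 13.4 to 16.4 in TAC-2w, 7.12 to 9.84 in TAC-4w and 20.8 to 25.8 in TAC-6w. The lowest sham value, from the spots with the fewest UMIs, lay within the range of TAC-2w, and the TAC-4w values lay below those of the other sections.

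Among the 3 equal groups of spots ranked by the share of fibroblast marker UMIs, the richest had a ratio of 32.3 in sham, 16.9 in TAC-2w, 8.29 in TAC-4w and 18.2 in TAC-6w. The TAC-2w value was below sham in these spots, unlike in fibroblast-like cells. The TAC-6w value was further below sham than in the whole section. Sham rested on 19 UMIs of Arntl in these spots, and its interval (20.5 to 54.0) overlapped that of TAC-6w (14.3 to 23.4). Such overlap does not show that the values agree. The other groups did not follow, at 24.9 in TAC-6w against 25.5 in sham in the poorest and 26.0 against 22.8 in the middle one. In the richest spots fibroblast markers reached 1090 to 1619 CPM, against 15649 to 27108 CPM in fibroblast-like cells. Over whole sections cardiomyocyte markers summed to 26362 to 35607 CPM against 22.1 to 145 CPM in fibroblast-like cells.

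**Figure D5:**
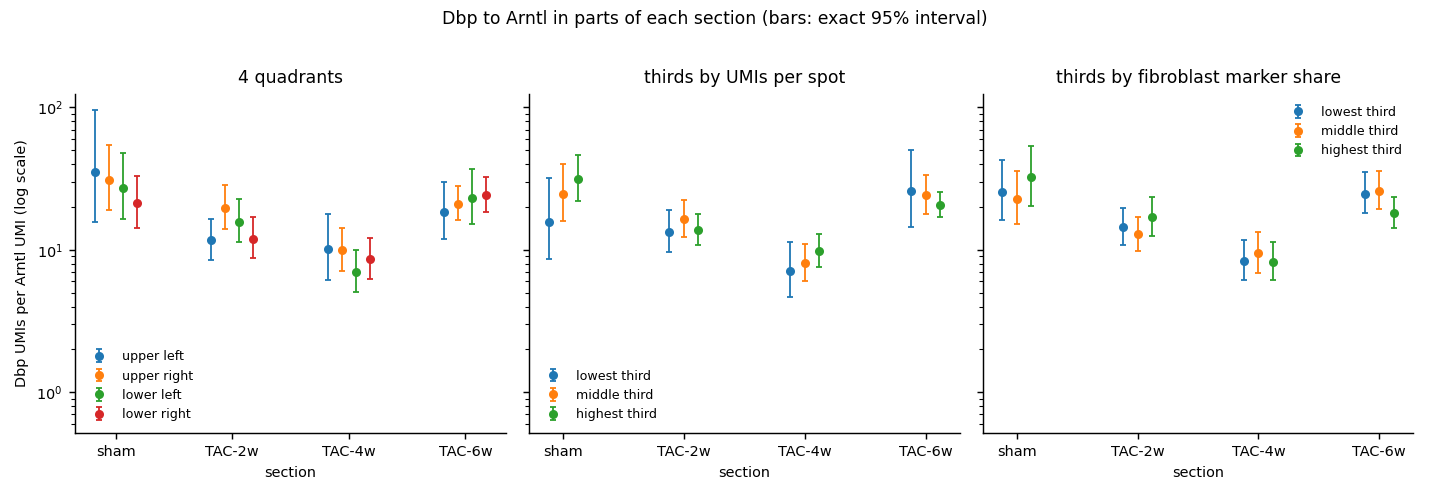
Dbp UMIs per Arntl UMI (log axis) in parts of each section, cut into 4 quadrants or into 3 equal groups of spots by UMIs or by fibroblast marker share, with exact 95% intervals. TAC-4w parts lie between 7.05 and 10.2 and sham parts between 15.7 and 35.0.

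Of 18 other clock genes in a fixed list, 14 to 16 had enough UMIs in the sections and all kept cells. In the sections none passed the fold in TAC-2w or TAC-6w, and in TAC-4w Nfil3, a repressor at D-boxes, was above (1.94 times sham) and Hlf, a relative of Dbp, below (0.576 times), against 15.2% above and 2.5% below of all genes. The shares of all genes in TAC-2w were 4.95% and 3.27%, and in TAC-6w 17.6% and 0.962%. Over all kept cells, none of 16 was above and 1 below in TAC-2w (2.45% and 1.94% of all genes), 2 were above and 8 below in TAC-4w (20.7% and 28.9%), and 3 were above and 1 below in TAC-6w (7.12% and 15.9%). In fibroblast-like cells 2 of 15 were above and 1 below in TAC-2w (2.24% and 1.57%), 2 above and 1 below in TAC-4w (12.9% and 8.44%), and 3 above and none below in TAC-6w (7.54% and 13.9%). Npas2, which can stand in for Clock, was at 12.7 CPM in sham, 8.58 CPM in TAC-2w, 11.9 CPM in TAC-4w and 28.6 CPM in TAC-6w, and Cry1, a partner of the PER proteins, at 5.84, 3.16, 7.33 and 10.4 CPM. Both were lowest in TAC-2w and highest in TAC-6w in these cells, as Arntl was. With the Gdf10 cluster left out, Arntl was highest in value in TAC-4w, at 38.1 CPM against 35.9 CPM in TAC-6w. Cry1 was then highest in TAC-4w too, at 12.4 CPM against 10.5 CPM in TAC-6w. Npas2 did not follow, at 10.8 CPM in TAC-4w, 12.7 CPM in sham and 28.8 CPM in TAC-6w. The interval of its TAC-4w ratio to sham included 1. Hlf was at 20.9 CPM in sham, 36.2 CPM in TAC-2w, 21.0 CPM in TAC-4w and 16.4 CPM in TAC-6w in fibroblast-like cells, and at 58.9, 46.1, 4.51 and 8.04 CPM in endothelial cell-like cells. In fibroblast-like cells it was highest in TAC-2w and lowest in TAC-6w, as Dbp was, and in endothelial cell-like cells it was highest in sham and lowest in TAC-4w. Without the Gdf10 cluster Hlf parted from Dbp in TAC-4w fibroblast-like cells, at 31.4 CPM against 20.9 CPM in sham (interval of the ratio 1.21 to 1.85). The endothelial cell-like values of Hlf include the cluster led by Npr3. That cluster held 41.7% of the sham and 2.09% of the TAC-4w cells, so these values also mix clusters in different shares.

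Among the most abundant of the list in the sections, 3 lay in narrow ranges. Usp2, a protease with targets in the clock, was at 98.5 CPM in sham, 89.6 CPM in TAC-2w, 78.2 CPM in TAC-4w and 89.8 CPM in TAC-6w. Nono lay between 33.8 and 45.1 CPM and Csnk1d, a kinase of the PER proteins, between 24.3 and 33.1 CPM.

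To see which genes ran most like Dbp and Arntl, log2 levels were centred within the sections and each of the 3 cell types, giving 16 values a gene. These points share libraries and depth, so the correlations are descriptions. They also include the clusters led by Gdf10 and Npr3, whose shares differed between libraries. Among 1900 genes with at least 50 UMIs at each point, Selenop (Pearson's r = 0.89), Hnrnpa1 (0.86), Igfbp4 (0.85), Zfp36 (0.85) and Jun (0.84) were most like Dbp, and Plec (0.85), Nudc (0.85), Nfe2l1 (0.82), Akt1 (0.81) and Tcea1 (0.79) most like Arntl. Among the 10 clock genes Tef (0.87), Nr1d2 (0.82), Nr1d1 (0.81) and Per3 (0.78) ran most like Dbp, Clock was the 1 nearest to Arntl (0.47), and Dbp against Arntl gave -0.83. The minimum of 50 UMIs was not applied to clock genes, and Nr1d1 had as few as 2 UMIs at a point and Per3 4. Dbp itself had as few as 13 and Arntl 17. Of the other clock genes, Hlf (0.89) ran nearer to Dbp than Tef, and Npas2 (0.65) and Cry1 (0.50) nearer to Arntl than Clock. These places rest partly on counts near the floor. Hlf and Npas2 had as few as 0 UMIs at a point and Cry1 8, against 13 for Tef and 48 for Clock.

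Summed levels of genes that answer handling, stress hormones or cold moved with some of these values, and their part in them was not tested. Immediate early genes, which answer tissue dissociation, summed to 15624 to 22926 CPM in fibroblast-like cells of sham, TAC-2w and TAC-6w and 13852 CPM in TAC-4w, and to 3317 CPM in TAC-4w endothelial cell-like cells against 13870 CPM in sham, with 89.2 to 164 CPM in the sections. In macrophage-like cells they were at 11457 CPM in TAC-4w and 15993 CPM in sham. Heat shock genes were lower in TAC-4w than in sham in each of the 3 cell types. They were at 1893 against 4712 CPM in endothelial cell-like, 1607 against 3025 CPM in fibroblast-like and 2802 against 5512 CPM in macrophage-like cells. In the TAC-4w section the glucocorticoid-responsive genes summed to 3325 CPM against 1185 CPM in sham, and the cold-inducible genes to 132 against 71.0 CPM. There 3 of the 7 and 2 of the 2 genes were at least 1.5-fold above sham and none below, against 15.2% above and 2.5% below of all genes.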

How the data were processed

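The deposited files hold UMI counts of each gene in each spot or cell. By the submitters' processing notes the authors used Space Ranger 1.3.1 and Cell Ranger 7.0.0 with mm10, while the file headers name versions 1.2.0 and 6.0.0. Cells with 200 to 6000 genes, 500 to 30000 UMIs and under 15% mitochondrial UMIs were kept. The 3.2% with the highest Scrublet scores (scanpy 1.11.5) were removed from each library as doublets, and 120 of 32353 barcodes occurred in more than 1 library. Cells were log-normalized and clustered with Seurat 5.3.0 on 30 components of 3000 variable genes without the clock genes, at resolution 0.25 or 0.5, and clusters were named from 6 markers for each of 16 types. Libraries had 28793316 to 86671674 UMIs before filtering. Counts were summed per section, library and cell type. Ratios of counts have exact conditional 95% intervals (scipy 1.17.1). In data simulated for TAC-2w against sham sections, 95.6% of 11423 intervals held the true ratio. This checks the counting intervals only and says nothing of differences between hearts, batches or hours.

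The clock genes and lists were chosen with earlier results of these data known. Named among other genes were the clock genes, the 4 most abundant other clock genes of the list in the sections with Npas2, Cry1, Nfil3 and Hlf, and the 5 genes most like Dbp or Arntl. Of these, 1 of the abundant other clock genes is not reported here. Genes named as cluster leaders were chosen after the values were seen. A fold of 1.5 among genes whose larger sum reached 50 UMIs served as the count rule. Choices were varied 1 at a time, as given under the results that depend on them.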

Additional observations from a re-analysis of the deposited data

Results flagged for a closer look

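Changes in the Dbp to Arntl ratio against sham, on the log2 scale, ran in opposite directions between assays or cell types in each contrast. Each rests on 1 sample a group, and the difference between them was not tested. In TAC-2w the section was at -0.86, against 1.76 in fibroblast-like, 1.48 in endothelial cell-like and 0.56 in macrophage-like cells. In TAC-4w the section was at -1.61 and endothelial cell-like cells at -4.29, against 0.50 in fibroblast-like cells, which stood at -1.22 without the cluster led by Gdf10. In TAC-6w fibroblast-like cells were at -1.56 and endothelial cell-like cells at -2.83, against 0.81 in macrophage-like cells. Without the cluster led by Npr3 the endothelial cell-like values were -2.30 in TAC-4w and -0.76 in TAC-6w, the latter with an interval that included no change.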

How the results depend on the processing

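No paired analysis was possible because each condition had 1 section and 1 library, and for the same reason no replicate could be left out. Values here are log2 changes of the Dbp to Arntl ratio against sham unless stated. Under the alternatives planned at the start, 81 values stayed within the counting interval, 19 left it on the same side of sham and 2 reversed, and under those chosen after seeing the data 5 stayed, 3 left it and 1 reversed.

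The reversals were TAC-4w fibroblast-like cells named one by one by their own markers (-0.44) or without the cluster led by Gdf10 (-1.22), from 0.50, and TAC-4w over all kept cells with the Per genes for Dbp (0.85), from -0.76. With Nr1d1 for Dbp the changes were -0.26 and -0.69 in the TAC-2w and TAC-4w sections, 1.14 and -0.70 over all kept cells of TAC-2w and TAC-6w, 1.39 and -0.77 in fibroblast-like cells of TAC-2w and TAC-6w, 1.48 in TAC-2w macrophage-like and -2.73 in TAC-4w endothelial cell-like cells. With the Per genes they were -0.90 in the TAC-4w section, 0.78 and -0.27 over all kept cells of TAC-2w and TAC-6w, 1.08 and -0.41 in fibroblast-like cells of TAC-2w and TAC-6w, 0.026 in TAC-2w macrophage-like cells, and -1.91 and -1.24 in endothelial cell-like cells of TAC-4w and TAC-6w. TAC-4w over all kept cells was at -0.13 with a mitochondrial share under 5% and at -1.15 with every cell weighted alike, which also gave -3.42 in TAC-4w endothelial cell-like cells. Without the cluster led by Npr3 the endothelial cell-like changes were -2.30 in TAC-4w and -0.76 in TAC-6w, and the TAC-6w section was at -0.83 in the spots richest in fibroblast markers. Beyond leaving out those 2 clusters, the causes were not tested.

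The number of clock genes past the fold, out of 1, 3 and 0 in the TAC-2w, TAC-4w and TAC-6w sections, was 6, 6 and 3 at 1.2-fold, and 0 in TAC-4w at 2-fold. Over all kept cells 1.2-fold gave 6, 8 and 8 in place of 3, 5 and 2, and 2-fold 0 in TAC-2w and 1 in TAC-6w. In fibroblast-like cells 1.2-fold gave 4 in TAC-4w and 7 in TAC-6w in place of 2 and 2, and 2-fold 2 in TAC-2w in place of 5 and 1 in TAC-6w. In macrophage-like cells 1.2-fold gave 6, 4 and 7 in place of 2 each, 2-fold 1, 1 and 0, and a minimum of 200 UMIs 0 in TAC-2w and 1 in TAC-4w. The shares of all genes past these other cut-offs were not worked out. Whether clock genes passed them more often than other genes therefore cannot be judged from these counts.

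Of the ratios of single clock genes to sham, 3 reversed with mitochondrial and rRNA-like genes left out of the total (log2 -0.10 and -0.14 for Nr1d1 in the TAC-2w and TAC-4w sections, -0.061 for Dbp in TAC-6w) and 4 when scaled by the median gene (-0.094 and -0.016 for Nr1d1 in the TAC-4w and TAC-6w sections, -0.067 for Per1 and -0.16 for Dbp in TAC-6w). Depth limits the ratios where Arntl had few UMIs, with 63 in the sham section and 17 to 22 in TAC-2w and TAC-6w endothelial cell-like and TAC-4w macrophage-like cells. It also limits single genes there, such as Per2 with 1 UMI in TAC-6w endothelial cell-like cells and Nr1d1 with 2 in TAC-4w macrophage-like cells.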
